A study of Mus musculus with 45 samples.

Results

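The brain comparison set 3 arrays of mice fed a high-cholesterol diet (HCD) against 3 arrays of mice fed the standard diet (Control), which makes 6 of the 45 arrays of the series. It takes in all 22080 genes of the deposited table. Both groups were male C57BL/6 mice that entered the study at 7 weeks of age, 8 per group, and were sacrificed on day 43. Control mice ate the AIN-93 diet and HCD mice ate AIN-93 with 0.5% cholesterol. Neither group received an extract or a drug. The other 9 brain arrays came from mice on the same cholesterol diet with 1 of 2 Ganoderma lucidum extracts (HCD+Gl-1, HCD+Gl-2) or with simvastatin (HCD+Sim), and they serve here only to show how far a brain array can range. By the study's methods, arrays A and B of a group hold pooled RNA of different mice of that group and array C holds a mix of both pools, so that 3 arrays rest on 2 separate pools. The labels call the tissue brain, and a dissected region is not given in the sources used here.

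The adult brain makes nearly all of its own cholesterol, because lipoproteins of the blood do not cross the blood-brain barrier. Most of that cholesterol lies in myelin, astrocytes hand cholesterol to neurons on particles that carry apolipoprotein E, and neurons export the excess as 24S-hydroxycholesterol, made by CYP46A1. Brain tissue is also a mosaic: the cerebellum, striatum, cortex and olfactory bulb each express genes that are nearly absent elsewhere, so the level of such a gene depends on how much of its region entered the sample. In tissue arrays, fewer cells of a type and less RNA per cell cannot be told apart.

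The arrays bore out the tissue label. The mean of 10 pan-neuronal genes lay between 10.88 and 11.11 log2 units on the 9 other brain arrays, between 11.00 and 11.07 on the 6 arrays compared here, and between 5.64 and 6.10 on the liver and kidney arrays. Hepatocyte genes averaged 5.76 to 6.10 on the 6 brain arrays and ranged from 7.46 to 13.17 over liver and kidney. Array medians of the brain arrays lay between 6.84 and 6.92, and precision was limited by the number of arrays, with a median standard error of 0.0995 log2 units for an HCD minus Control difference.

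A single Control array stood apart. The HCD arrays correlated with each other at 0.9963 to 0.9969 over all genes, and Control arrays A and B at 0.9960, whereas Control array C correlated with A at 0.9909 and with B at 0.9846. These values are across genes, which are not independent replicates. Although array C should hold a mix of A and B, 94 genes lay more than 1 log2 unit below both A and B on it and 16 lay more than 1 above both. In the other 4 brain groups this number was between 0 and 8 genes in all. A mix of 2 pools should read between them, so array C went against its description, for which no value here gives a cause. Whether it is what its label says could not be checked here. Results that rest on it are given with and without it.

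The 10 genes farthest from arrays A and B on Control array C were all lower on it, and they included genes of the cerebellum and brainstem. Gabra6, the GABA-A receptor subunit of cerebellar granule cells, read 10.23 and 11.01 on Control arrays A and B and 4.71 on C, next to 4.32 to 5.05 on liver and kidney arrays. Cbln3, a granule cell partner of cerebellin 1, read 10.98, 11.71 and 5.93, next to 5.65 to 6.57 in liver and kidney. Slc6a5, the glycine transporter of brainstem and spinal inhibitory neurons, read 8.46, 8.96 and 5.51. For Gabra6 and Cbln3 array C lay within the range of the liver and kidney arrays. The other genes with the largest distance between array C and the mean of A and B were Car8, Ppp1r17, Cbln1, Fat2, Neurod1, Dao and Arhgef33, with differences from -4.13 to -3.15 log2 units.

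Control arrays A and B lay at the opposite end. The mean of the 15 cerebellum genes was 9.43 on Control A, 9.89 on Control B and 6.98 on Control C, 8.65, 8.08 and 9.04 on HCD A, B and C, and 7.22 to 8.87 on the other brain arrays. On Control array C all 15 cerebellum genes lay below both A and B, while 18 of the 19 striatum genes and 11 of the 12 cortex genes lay above both. Control A and B were thus the 2 highest of the 15 brain arrays for cerebellar genes and Control C the lowest, with the HCD arrays between them. Striatal genes ran the other way: their mean was 8.09, 7.53 and 8.94 on Control A, B and C, next to 8.33, 8.41 and 8.22 on the HCD arrays. Pan-neuronal genes did not follow, at 11.06, 11.07 and 11.00 on the Control arrays.

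**Figure D1:**
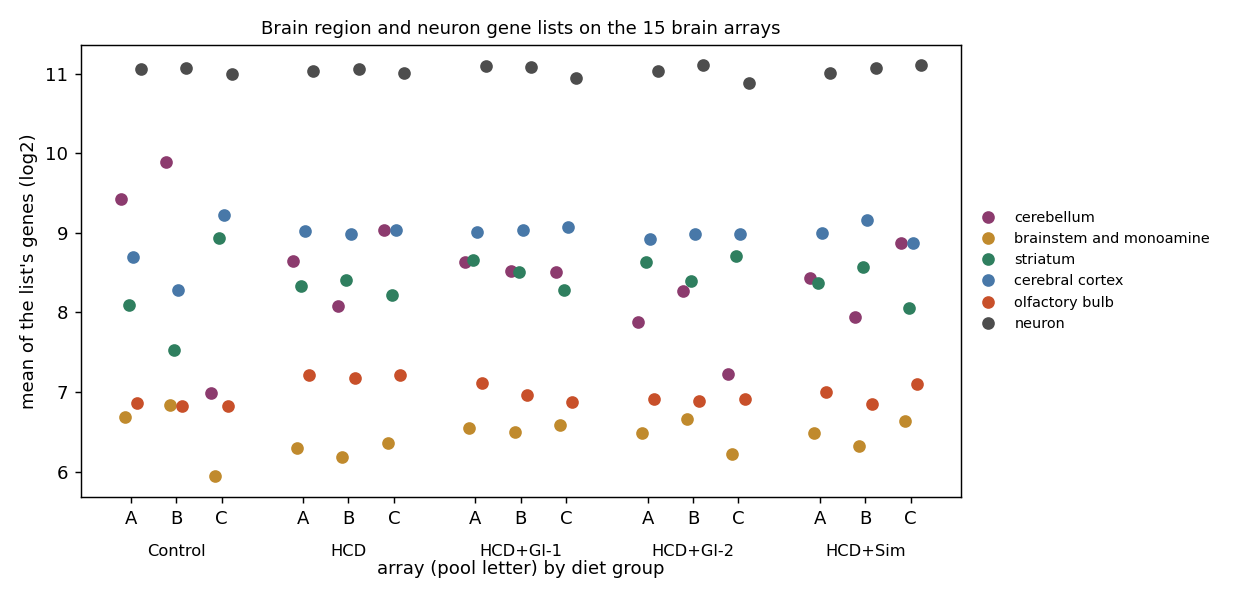
Mean log2 expression of 5 brain region gene lists and of the pan-neuronal list (vertical axis) on each of the 15 brain arrays, by diet group and pool letter (horizontal axis), 1 point per list and array. Cerebellar genes span 6.98 to 9.89 within the Control group alone, while olfactory bulb genes sit at 7.18 to 7.21 on the HCD arrays and at 6.82 to 6.87 on the Control arrays.

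In all, 7 genes were DE between HCD and Control in brain, which is 0.0317% of those tested. DE means a log2 fold change beyond 0.7 in either direction together with a Benjamini-Hochberg adjusted p of at most 0.05 in limma. Of these, 6 rose on the cholesterol diet (0.0272%): Gh, S100a5, Cdhr1, Doc2g, Stoml3 and Scgn. The other 1 fell (0.00453%), the microRNA gene Mir124a-1. Without regard to size, 12 genes passed the adjusted p (0.0543%), 10 higher and 2 lower, and 1423 had an unadjusted p of at most 0.05, of which 841 were higher (3.81%) and 582 lower (2.64%). All 3 HCD arrays lay above all 3 Control arrays in 6.62% of genes and below them in 5.05%. Across all genes the median log2 fold change was 0.006 and 52.4% of genes were higher on HCD. The smallest two-sided p that exact permutation of 3 against 3 arrays allows for 1 gene is 0.1.

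Of the 6 genes that rose, 4 mark the olfactory bulb or its inputs. S100a5, a calcium-binding protein of olfactory sensory neurons, read 5.58, 5.74 and 5.79 on Control arrays A, B and C and 6.58, 6.75 and 6.92 on HCD arrays A, B and C. The groups did not overlap, and the HCD arrays also lay above the other brain arrays, which ran from 5.69 to 6.44. S100a5 was 2.07-fold higher on HCD (log2 fold change 1.05 with a standard error of 0.11, limma adjusted p = 1.25e-07). Cdhr1, a protocadherin-like gene of photoreceptors and of the bulb's mitral and tufted cells, read 6.07, 5.76 and 6.31 against 7.20, 6.96 and 7.06 on HCD. Here too every HCD array exceeded every other brain array, whose highest value was 6.79. The difference was 1.03 on the log2 scale (standard error 0.15, limma adjusted p = 0.000194). Cdhr1 was not DE in a fit of the brain arrays alone or of the 6 compared arrays alone (limma adjusted p = 0.105 and 0.211).

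Doc2g, a C2 domain gene of the same mitral and tufted cells, read 7.62, 7.65 and 7.38 on the Control arrays and 8.45, 8.23 and 8.54 on the HCD arrays. Its lowest HCD value stood just above 8.21, the highest of the other brain arrays. The log2 fold change was 0.86 (standard error 0.13, limma adjusted p = 0.000217), and Doc2g too was not DE in those fits (limma adjusted p = 0.194 and 0.165). Scgn, which encodes secretagogin, a calcium sensor of bulb interneurons, read 4.27, 4.30 and 4.49 on Control and 5.12, 4.99 and 5.06 on HCD. Its log2 fold change of 0.70 (standard error 0.12, limma adjusted p = 0.00196) only just exceeded the fold threshold, and its Control values lay at the level of the olfactory receptor genes, whose mean was 4.36 to 4.40 on the Control arrays, near the array's floor. Detection calls were not used here, so the size of this difference is uncertain. Left out 1 array at a time, the value ran from 0.66 to 0.77, and Scgn was not DE in a fit of the 6 arrays alone (limma adjusted p = 0.122) or without HCD array A, HCD array C, Control array A or Control array B. Stoml3, a stomatin-like protein of olfactory cilia and of touch receptors, is not on the olfactory bulb list and read 6.09, 6.01 and 6.02 on Control against 6.97, 6.78 and 6.83 on HCD. That made a log2 fold change of 0.82 (standard error 0.11, limma adjusted p = 3.12e-05), again with every HCD array above every other brain array.

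The bases just upstream of the annotated starts of the 4 DE genes on the olfactory bulb list are shown because these genes moved together. RefSeq promoter windows on GRCm38.p6 were at hand for 5 of the 7 DE genes. The 250 bases before the start are given 5′ to 3′ on the gene's strand, with capitals for the CCAAT box (CCAAT, either strand). Cdhr1 lies at chr14:37098348-37098597 on the minus strand, Doc2g at chr19:4003135-4003384 on the plus strand, S100a5 at chr3:90608272-90608521 on the plus strand and Scgn at chr13:23991215-23991464 on the minus strand.
Cdhr1: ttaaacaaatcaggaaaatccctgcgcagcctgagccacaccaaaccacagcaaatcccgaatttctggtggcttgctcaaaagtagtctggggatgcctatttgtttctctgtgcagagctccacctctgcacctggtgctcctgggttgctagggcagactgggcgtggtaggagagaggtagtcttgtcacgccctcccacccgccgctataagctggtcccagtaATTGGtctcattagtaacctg
Doc2g: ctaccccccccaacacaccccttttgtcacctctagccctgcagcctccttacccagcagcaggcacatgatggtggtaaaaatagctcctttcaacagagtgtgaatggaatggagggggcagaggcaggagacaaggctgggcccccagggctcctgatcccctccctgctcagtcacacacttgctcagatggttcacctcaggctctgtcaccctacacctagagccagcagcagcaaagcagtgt
S100a5: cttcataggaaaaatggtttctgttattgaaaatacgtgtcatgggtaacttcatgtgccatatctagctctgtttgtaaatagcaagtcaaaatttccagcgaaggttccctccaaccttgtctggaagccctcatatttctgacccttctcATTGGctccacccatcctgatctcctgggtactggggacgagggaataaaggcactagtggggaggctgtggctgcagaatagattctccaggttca
Scgn: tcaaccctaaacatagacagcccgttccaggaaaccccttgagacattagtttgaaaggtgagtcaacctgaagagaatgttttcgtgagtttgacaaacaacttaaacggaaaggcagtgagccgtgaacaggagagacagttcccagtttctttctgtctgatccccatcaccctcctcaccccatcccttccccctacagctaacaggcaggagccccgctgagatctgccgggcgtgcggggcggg
A CCAAT box was found once each upstream of Cdhr1 and S100a5 and in 33.8% of all 32851 windows of this length. The homeodomain motif TAATTA and the TATA box TATAAA were found in none of the 4 windows on either strand, and in 4.84% and 12.4% of all windows. With 1 match at most in a window, no matches overlapped. A match or its absence describes these letters in this window and no more.

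The olfactory bulb list, including its 4 DE genes, had 18 of 21 measured genes higher on HCD and a median of 0.28 on the log2 scale. Its other 17 genes had 14 higher and a median of 0.23. Over the whole list 13 were higher at an unadjusted p of at most 0.05 (61.9%, next to 3.81% of all genes). They include the 4 DE genes, which pass this cut by their choice. At the same cut 1 was lower (4.76%, next to 2.64% of all genes). The list's mean was 6.87, 6.82 and 6.83 on the Control arrays, 7.21, 7.18 and 7.21 on the HCD arrays and 6.85 to 7.11 on the other brain arrays. The HCD arrays were the 3 highest of the 15 brain arrays, and the median stayed between 0.22 and 0.36 with any 1 of the 6 arrays left out. Both values include the 4 DE genes, chosen by their HCD minus Control difference on these arrays, which favoured both in advance. Neither was worked out for the other 17 genes alone. Over all genes, 39 (0.177%) had all 3 HCD arrays above the 12 other brain arrays, and 5 of the 7 DE genes were among them. The DE genes were chosen by HCD against Control, and the Control arrays are part of the 12. Their presence among the 39 was thus favoured in advance and is no separate support.

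Not all bulb genes moved. Dlx1, Dlx5 and Th, genes of bulb interneurons that the forebrain also uses elsewhere, had log2 fold changes of 0.74, 0.65 and 0.73 but limma adjusted p-values of 0.21, 0.202 and 0.132. Dlx1 read 7.19, 6.37 and 7.96 on Control and 7.97, 8.05 and 7.72 on HCD, so that Control array C lay among the HCD arrays. Without it Dlx1 was DE at 1.13 and Dlx5 at 1.00 (limma adjusted p = 7.42e-05 and 5.56e-05), while Th, lowest on array C, went to 0.37. Gng13, a G protein subunit of sensory neurons, was the gene of the list that was lower at an unadjusted p of at most 0.05. It read 8.17, 8.48 and 7.40 on Control and 7.74, 7.25 and 7.93 on HCD, with overlap and a log2 fold change of -0.37 (limma adjusted p = 0.685). Tbx21 and Eomes, transcription factors of mitral and tufted cells, had log2 fold changes of -0.10 and -0.13, and Omp, the olfactory marker protein, had 0.26 (limma adjusted p = 0.954, 0.98 and 0.611). How much bulb tissue each pool held was not measured, and its part in these differences was not tested.

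Gh showed the largest change. Growth hormone is made by the somatotrophs of the anterior pituitary, and the gene read 6.56, 6.55 and 7.46 on the Control arrays and 8.06, 8.76 and 7.64 on the HCD arrays. HCD array C came close to Control array C, and the other brain arrays ran from 7.21 to 9.20. Control A and B thus lay below every other brain array. The log2 fold change was 1.29 (standard error 0.18, limma adjusted p = 5.06e-05), but Gh was not DE in a fit of the brain arrays alone or of the 6 compared arrays alone (limma adjusted p = 0.194 and 0.854). Prl, the other abundant pituitary hormone, read 5.01, 5.05 and 5.46 on Control and 5.45, 6.02 and 4.97 on HCD. It was lowest of the 6 arrays on HCD array C, and its difference of 0.31 missed the threshold (limma adjusted p = 0.842). Of the 15 pituitary genes measured 9 were higher, the median was 0.01, and Pomc, Tshb, Cga and Pou1f1 lay between -0.04 and 0.10. Pituitary carried over at dissection was not recorded in the sources used here, and its part in the Gh value was not tested.

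Mir124a-1 fell. It is 1 of 3 genes for miR-124, a microRNA abundant in neurons, and the array reads transcript over the gene rather than the processed microRNA. The values were 5.29, 5.36 and 5.45 on the Control arrays and 4.57, 4.57 and 4.53 on the HCD arrays. The 2 groups were tight and far apart, and the other brain arrays filled the gap between them, from 4.49 to 5.05. The log2 fold change was -0.81 (standard error 0.10, limma adjusted p = 1.75e-05). The HCD values lay close to the mean of the olfactory receptor genes near the array's floor, so the size of this fall too is uncertain. Mir124a-2 and Mir124a-3 had log2 fold changes of 0.09 and -0.02 (limma adjusted p = 0.979 and 0.992).

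Other microRNA genes were tested with it. Of the 315 measured, 197 were lower on HCD and the median was -0.04. At an unadjusted p of at most 0.05, 23 (7.30%) were lower and 4 (1.27%) higher, next to 2.64% and 3.81% of all genes. The lean was not particular to microRNA genes. Of the 9 gene families, only the ribosomal protein genes had more members higher than lower, and 648 of 1100 olfactory receptor and 132 of 211 vomeronasal receptor genes were lower. Mir411, of the imprinted Dlk1-Dio3 cluster, had a log2 fold change of -0.63 and Mir487b of the same cluster 0.48, neither past the test (limma adjusted p = 0.118 and 0.274). Small nucleolar RNA genes leaned the same way, with 51 of 65 lower, a median of -0.09 and none past the adjusted p.

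**Figure D2:**
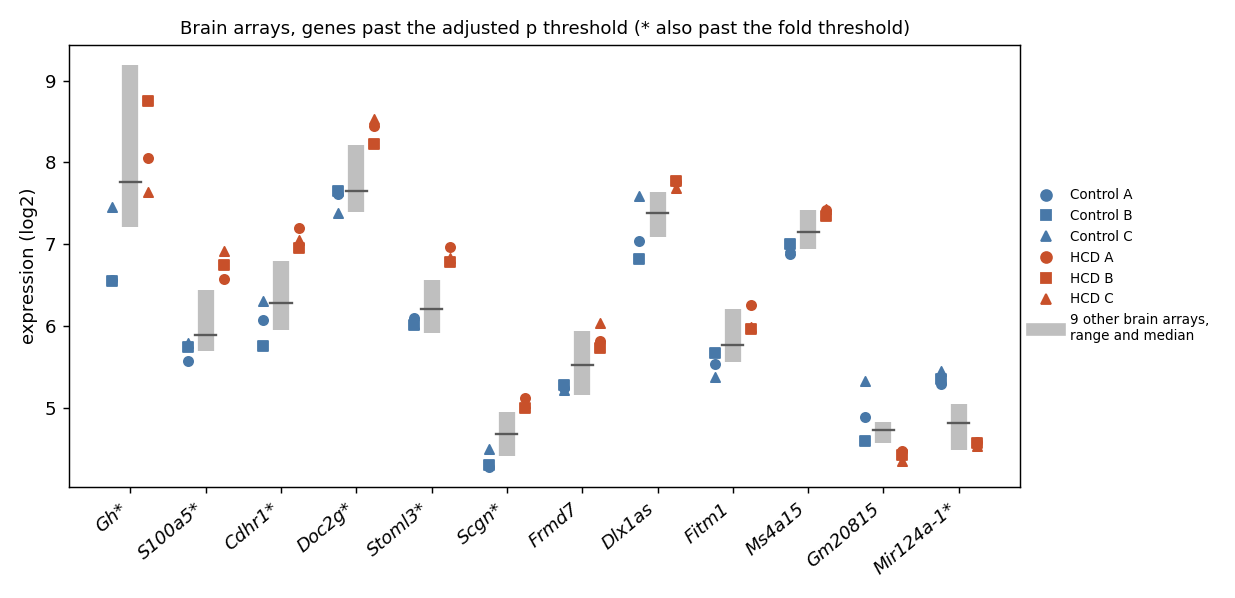
Log2 expression (vertical axis) of the 12 genes past the adjusted p in brain (horizontal axis; * also past the fold threshold), as points for the 3 Control and 3 HCD arrays and grey bars for the range and median of the 9 other brain arrays. For S100a5, Cdhr1, Doc2g, Stoml3 and Scgn the HCD points lie above the grey bar, while Mir124a-1 has Control points above it and HCD points inside it.

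A further 5 genes passed the adjusted p with a fold change below the threshold, and they are named after their values were seen. Fitm1, which encodes a protein of the endoplasmic reticulum that partitions triglyceride into lipid droplets, read 5.53, 5.67 and 5.37 on Control and 6.26, 5.96 and 5.99 on HCD. It was higher by 0.55 log2 units (standard error 0.09, limma adjusted p = 0.00196), and it was the only 1 of the 12 genes that was also DE in liver, where its log2 fold change was 0.74. Dlx1as, the antisense transcript at the Dlx1 locus, read 7.04, 6.81 and 7.59 on Control and 7.76, 7.78 and 7.69 on HCD (log2 fold change 0.59, limma adjusted p = 0.0437). Frmd7, a cytoskeletal gene linked to inherited nystagmus, was higher by 0.62 (limma adjusted p = 0.0154) and Ms4a15 by 0.45 (limma adjusted p = 0.0449). Gm20815, a predicted gene on the Y chromosome with near-identical relatives that the array may not separate, was lower by 0.52 (log2 fold change -0.52, limma adjusted p = 0.0298), with Control arrays at 4.88, 4.59 and 5.33 and HCD arrays at 4.47, 4.42 and 4.35. In all 5 genes the groups did not overlap, which their choice by adjusted p made likely. Over all genes, 6.62% had all HCD arrays above all Control arrays and 5.05% had them below.

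No gene of cholesterol synthesis was DE in brain, where 0.0317% of all genes were. All 21 measured genes of the mevalonate and sterol pathway had a 95% interval that covered 0 and lay within the fold threshold on both sides, from -0.37 to 0.51 over the list. Of these, 12 were higher and 9 lower, with a median of 0.02, and none had an unadjusted p of at most 0.05. Sqle, squalene epoxidase, read 7.84, 7.60 and 7.78 on Control and 7.77, 7.81 and 7.79 on HCD (log2 fold change 0.06), and the groups overlapped. The largest differences of the list were 0.21 for the sterol oxidase Msmo1 and -0.16 for the sterol isomerase Ebp (limma adjusted p = 0.911 and 0.901).

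Sterol sensing and uptake genes gave similar values. Of 15 measured, 7 were higher and 8 lower, with a median of -0.003, and the 95% intervals ran from -0.38 to 0.33. Without Control array C, 4 were higher and the median was -0.04. Srebf2, the transcription factor that drives the synthesis genes when sterols run low, had a log2 fold change of 0.09, and its partners Scap, Insig1 and Insig2 all had differences under 0.05 in size. Nr1h2, the liver X receptor isoform most used in brain, had -0.07. Npc2, which moves cholesterol out of lysosomes, was the 1 gene of the list whose interval left out 0. It read 7.75, 8.01 and 7.59 on Control and 7.60, 7.59 and 7.56 on HCD, a difference of -0.20 that missed the threshold (limma adjusted p = 0.689) and lay with Control array C among the HCD arrays.

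Transport and turnover genes gave 17 higher and 7 lower of 24, with a median of 0.03, 2 higher at an unadjusted p of at most 0.05 and none DE. This lean rested on Control array C, on which 18 of the 24 lay below both A and B. Without array C, 8 of the 24 were higher and the median was -0.04. In that fit 3 passed the adjusted p and none was DE. Cyp46a1, the cholesterol 24-hydroxylase of neurons, read 10.79, 10.43 and 11.30 on Control and 11.21, 11.21 and 11.02 on HCD. Its difference of 0.30 (95% interval 0.05 to 0.56, limma adjusted p = 0.649) came from Control arrays A and B, and array C was the highest of the 6. Without array C it was 0.54 with a limma adjusted p of 0.00283, still under the fold threshold. Soat1, which esterifies cholesterol for storage, read 8.23, 8.27 and 8.16 on Control and 8.49, 8.45 and 8.44 on HCD, with no overlap and a difference of 0.24 (95% interval 0.08 to 0.40, limma adjusted p = 0.445). Apoe read 12.26, 12.18 and 12.19 against 12.23, 12.22 and 12.23, a difference of 0.02 (95% interval -0.10 to 0.13). Abca1 and Abcg1, the exporters that load apolipoprotein E particles, both had a log2 fold change of 0.04.

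**Figure D3:**
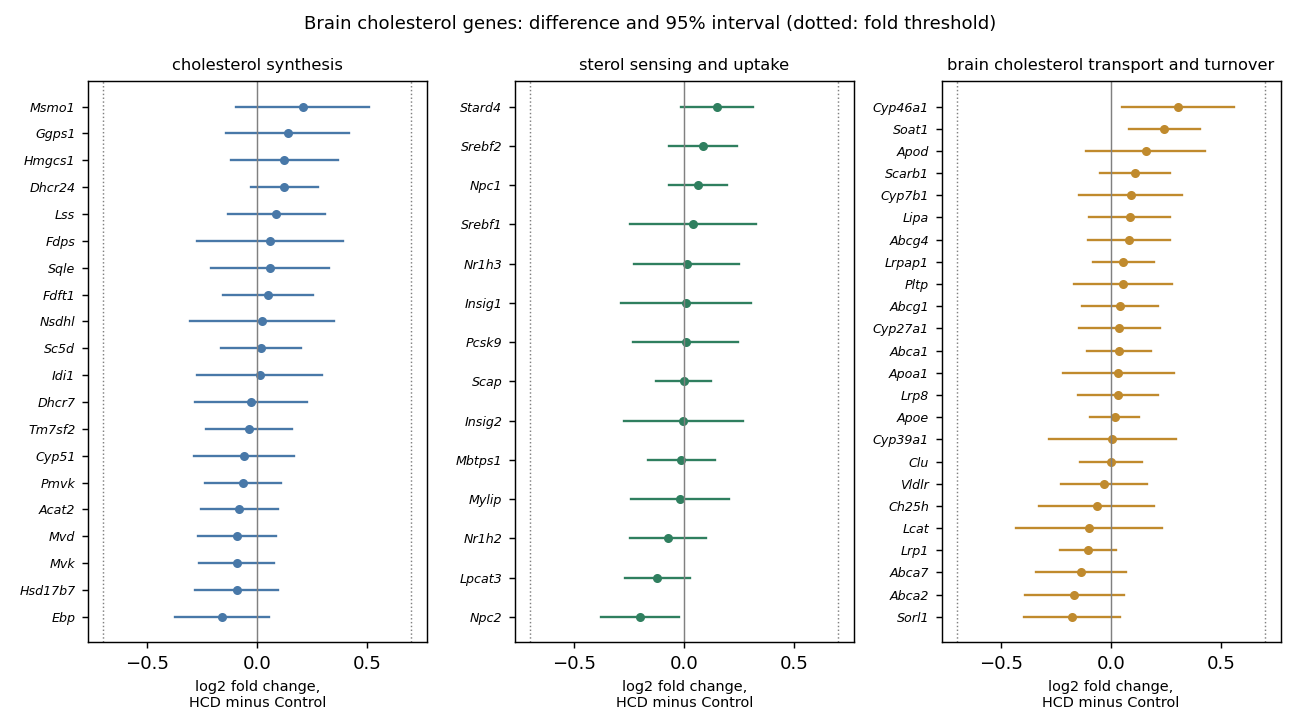
Log2 fold change, HCD minus Control, in brain (horizontal axis) with its 95% interval for genes of 3 cholesterol lists (vertical axis), with dotted lines at the fold threshold of 0.7. All intervals lie inside the dotted lines and cover 0, the exceptions for 0 being Npc2, Cyp46a1 and Soat1.

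Genes of fatty acid metabolism were much the same. Of 17 synthesis and desaturation genes 8 were higher with a median of -0.01, and none was DE. On Control array C 16 of the 17 lay below both A and B. Without that array 5 were higher and the median was -0.09, again with none DE. Fads2, the delta-6 desaturase, had a log2 fold change of 0.16 and Scd2, the main brain stearoyl-CoA desaturase, 0.09 (limma adjusted p = 0.552 and 0.977). Among the 15 binding and activation genes, Fabp7, the fatty acid binding protein of radial glia and astrocytes, read 10.16, 10.31 and 9.58 on Control and 10.42, 10.45 and 10.62 on HCD. The groups did not overlap, but Control array C was the lowest by far, and the difference of 0.49 missed the threshold (limma adjusted p = 0.219). Cd36, a fatty acid transporter, had 0.29 (limma adjusted p = 0.506).

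Forebrain neuron genes were higher on HCD without passing the test. Of 12 cortex genes 11 were higher, with a median of 0.29. At an unadjusted p of at most 0.05, 7 were higher (58.3%, next to 3.81% of all genes). Of 8 excitatory neuron genes 7 were higher, with a median of 0.38. Mef2c, a transcription factor of cortical neurons, read 10.31, 9.86 and 10.97 on Control and 11.01, 10.83 and 10.94 on HCD, a difference of 0.55 (limma adjusted p = 0.118). Tbr1, which specifies cortical projection neurons, had 0.43 (limma adjusted p = 0.608). In both genes Control array B was lowest, A next, and C in or above the range of the HCD arrays. Without array C, 4 of the 12 cortex genes were DE (33.3%, next to 0.630% of all genes) and the median was 0.53. With any 1 array left out the cortex median ran from 0.07 to 0.53. The excitatory neuron median ran from 0.07 to 0.65, highest without array C, where 4 of the 8 genes were DE.

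Synaptic receptor genes were mostly higher, with none DE. GABA receptor subunits gave 13 of 15 higher with a median of 0.19, and Gabra4, Gabrg3 and Gabra5, subunits of forebrain receptors, had log2 fold changes of 0.47, 0.46 and 0.43 (limma adjusted p = 0.503, 0.503 and 0.505). Gabra6, the largest of the list at 0.54, is given with the cerebellar genes below. Without Control array C, 5 of the 15 passed the adjusted p and 2 were DE, Gabra4 and Gabrg3. Glutamate receptor genes gave 14 of 21 higher, with a median of 0.11, and 1 was DE without Control array C. Genes of synaptic vesicle release had a median of 0.07 with none DE. Syt2 had the largest difference of that list, -0.37 (limma adjusted p = 0.901), and was DE without Control array C. Dopamine signalling genes gave 13 of 14 higher with a median of 0.13, led by Th. Their mean was 8.03, 7.89 and 8.23 on Control arrays A, B and C and 8.21, 8.32 and 8.14 on the HCD arrays, so Control array C lay among the HCD arrays. Without array C the median was 0.27 with 1 gene DE, and with any 1 array left out it ran from -0.02 to 0.27.

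Neuropeptide genes gave 19 of 23 higher, with a median of 0.21 and none DE. Of them 10 were higher at an unadjusted p of at most 0.05 (43.5%, next to 3.81% of all genes). The list's mean was 7.05, 6.94 and 7.33 on Control arrays A, B and C and 7.30, 7.41 and 7.17 on the HCD arrays, so Control array C lay among the HCD arrays. Without array C the median was 0.30 with 1 gene DE. Oxt, the oxytocin precursor, read 7.87, 7.82 and 7.86 on Control and 8.23, 8.25 and 8.15 on HCD. The groups were tight and did not overlap, and the difference of 0.36 missed the threshold (limma adjusted p = 0.319) while the other brain arrays ran from 7.81 to 8.59. Pmch, the melanin-concentrating hormone precursor of the lateral hypothalamus, had 0.45, with HCD arrays from 6.90 to 7.98 on both sides of the Control arrays (limma adjusted p = 0.53). Hypothalamus genes as a list had a median of 0.09 with 15 of 19 higher, and Agrp, an orexigenic peptide, had -0.22 (limma adjusted p = 0.639).

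Immediate early genes, which neurons switch on within minutes of activity, gave 19 of 25 higher with a median of 0.18 and none DE. Of them 6 were higher at an unadjusted p of at most 0.05 (24%, next to 3.81% of all genes). The list's mean was 7.71, 7.58 and 7.97 on Control arrays A, B and C and 7.96, 7.89 and 7.96 on the HCD arrays. Without Control array C the median was 0.31 with none DE, and with any 1 array left out it ran from 0.05 to 0.31. Egr1 read 9.63, 9.16 and 10.09 on Control and 10.39, 10.27 and 10.37 on HCD. Its groups did not overlap and the difference of 0.72 exceeded the fold threshold, yet the limma adjusted p was 0.901. The standard error of this gene, shared over the tissues, was 0.48, and liver and kidney arrays ran from 6.45 to 11.16. Nr4a1 and Egr2 had 0.59 and 0.57 (limma adjusted p = 0.751 and 0.729), while Fos, Junb and Atf3 lay between -0.01 and 0.07.

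The hippocampus list held a pair of near misses. Dsp, desmoplakin of dentate granule cells, had a log2 fold change of 0.48 (limma adjusted p = 0.055), with Control arrays at 6.19, 6.03 and 5.92 and HCD arrays at 6.78, 6.37 and 6.45. Nr3c2, the mineralocorticoid receptor, had 0.32 (limma adjusted p = 0.0724), with Control arrays at 7.82, 7.70 and 7.88 and HCD arrays at 8.13, 8.23 and 8.02. Neither gene overlapped between the groups. The hippocampus list as a whole had a median of 0.10 and the thalamus list 0.16.

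The values of cerebellar genes turned on Control array C. With all arrays, 13 of the 15 were lower on HCD, the median was -0.23 and none was DE, and the 95% interval of Gabra6 reached from -0.998 to 2.07 around a difference of 0.54. Without array C, the median was -1.02, and 12 of the 15 were DE and lower (80%, next to 0.630% of all genes DE). Gabra6 turned to -1.43 (limma adjusted p = 0.065). Cbln3 turned from 0.21 to -1.59. Brainstem and monoamine genes moved from a median of -0.17 with none DE to -0.38 with 3 DE, Slc6a5 going from -0.70 to -1.76. Hoxb5, a homeobox gene of the posterior hindbrain, read 6.34, 6.43 and 5.63 on Control and 5.62, 5.58 and 5.56 on HCD, with Control array C again at the level of the HCD arrays.

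Striatal genes mirrored this. Their median was 0.12 with 17 of 19 higher and none DE, and without Control array C it was 0.52 with 3 DE. Over all genes, leaving out array C raised the DE genes from 7 to 139 (0.630% of genes), 62 higher and 77 lower, and all 7 genes were among the 139. With the other Control array left out instead, A or B, 6 and 9 genes were DE. With the mean of the cerebellum genes as a covariate among the brain arrays, an alternative chosen after seeing the data, 7 genes were DE, of which 6 were the same, with Th gained at 0.80 and Scgn lost at 0.69. How far region content makes the cerebellar and striatal differences was not tested.

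**Figure D4:**
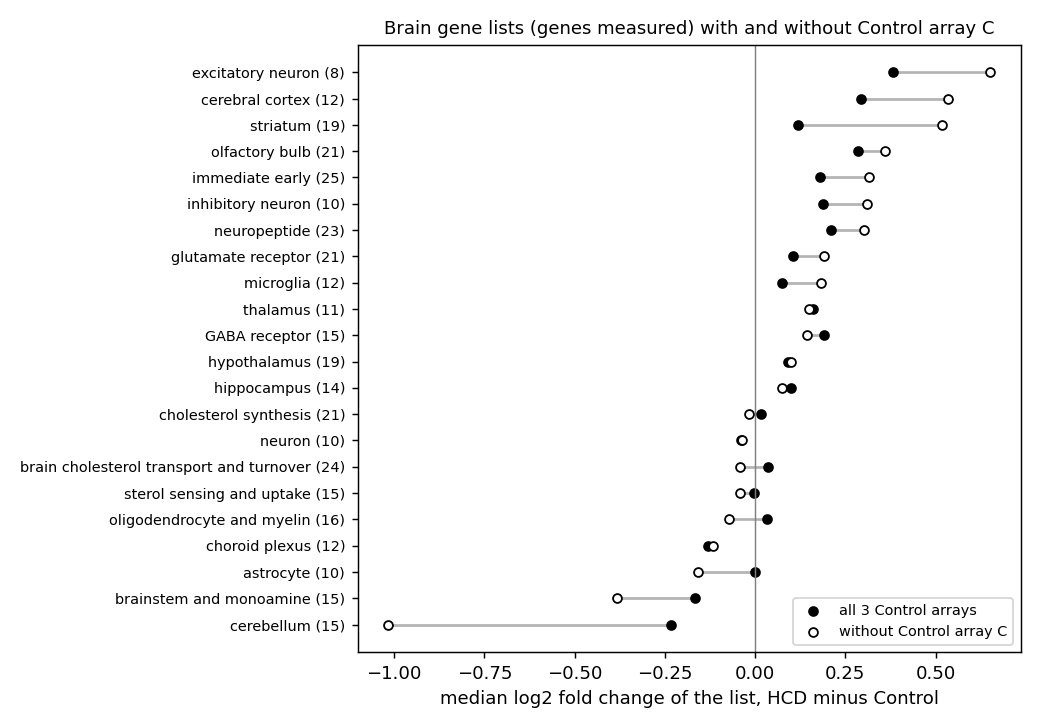
Median log2 fold change, HCD minus Control, in brain (horizontal axis) of 22 gene lists (vertical axis, number of genes measured in brackets), with all Control arrays (filled points) and without Control array C (open points). The cerebellum list goes from -0.23 to -1.02 and the striatum list from 0.12 to 0.52, while the olfactory bulb list goes from 0.28 to 0.36 and the cholesterol lists stay within 0.05 of 0.

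Glial and vascular genes showed no DE gene, next to 0.0317% over all genes, a share at which lists this short would seldom hold any. Genes of oligodendrocytes and myelin had a median of 0.03 with 10 of 16 higher, and Mbp had a log2 fold change of -0.04. Astrocyte genes had a median of -0.00032 with 5 of 10 higher. Microglia genes had 0.08 with 9 of 12 higher, endothelial genes -0.05, mural cell genes -0.0046 and genes of oligodendrocyte precursors 0.07. Some of these medians rested on Control array C, on which all 16 myelin genes lay below both A and B. Without array C the myelin median was -0.07 with 7 of 16 higher. Astrocyte genes then had -0.16 with 2 of 10 higher, and microglia genes 0.18 with 10 of 12 higher. In that fit 1 astrocyte and 2 microglia genes passed the adjusted p, with none DE. Choroid plexus genes were lower in 10 of 12 with a median of -0.13, and Ttr, transthyretin, read 12.70, 12.43 and 12.56 on Control and 12.36, 12.42 and 12.15 on HCD, with Control array B next to HCD array B (limma adjusted p = 0.899).

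Genes of inflammation and cell stress were likewise without a DE gene, which at 0.0317% over all genes says little about these lists. Interferon response genes had a median of 0.02, inflammatory cytokines -0.01, genes of microglial and astrocyte activation -0.02, heat shock genes 0.03, genes of endoplasmic reticulum stress 0.01 and antioxidant genes of the NRF2 pathway 0.02. Lcn2, an acute phase gene of reactive astrocytes, read 7.07, 7.20 and 6.11 on Control and 6.24, 5.99 and 5.72 on HCD, a difference of -0.81 that was not past the test (limma adjusted p = 0.922) and that overlapped at array C. Glucocorticoid response genes had a median of -0.07, with Sgk1 at -0.34 and Nfkbia at -0.27 (limma adjusted p = 0.729 for both) and no overlap between the groups in either gene. Circadian clock genes had a median of 0.08 with 14 of 19 higher.

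The diet response of brain was then compared with that of liver and kidney from the same groups of mice, as a difference of 2 differences in the same fit. It differed from liver in 42 genes (0.190%), 21 higher and 21 lower in brain, and from kidney in 27 genes (0.122%), 10 higher and 17 lower. All 7 brain DE genes differed from liver and 6 of them from kidney, Scgn being the exception (limma adjusted p = 0.0733). These genes were chosen by their brain difference in the same fit, which favoured their passing in advance. Their passing is therefore no separate support for a response particular to brain. Gh exceeded its liver difference by 1.45, Cdhr1 by 1.13 and S100a5 by 0.92 log2 units (limma adjusted p = 0.0017, 0.00462 and 0.000761).

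Genes DE in liver on this diet had small differences in brain. They were chosen by their liver difference in the same fit, which favoured a difference between the tissues in advance. Whether each of them is expressed in brain was not tested. The 54 liver DE genes had brain log2 fold changes from -0.28 to 0.55 with a median of -0.03, 19 of them were higher, and 1, Fitm1, had an unadjusted p of at most 0.05. Of the 54, 24 passed the test of the difference between the tissues, among them the 5 genes named next. Srebf1, the lipogenic transcription factor, read 7.80, 7.69 and 7.81 on the Control brain arrays and 7.79, 7.85 and 7.78 on the HCD brain arrays, a difference of 0.04 next to 1.14 in liver. The 2 tissues differed by -1.10 (limma adjusted p = 0.00364). Sqle differed by 0.97 (limma adjusted p = 0.00581), with -0.92 in liver and 0.06 in brain. Abcg5 and Abcg8, the sterol exporters of liver and gut, differed by -0.92 and -0.91, with 0.92 and 0.88 in liver and -0.005 and -0.03 in brain, and Cyp7a1, the rate-limiting enzyme of bile acid synthesis, by -1.13.

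**Figure D5:**
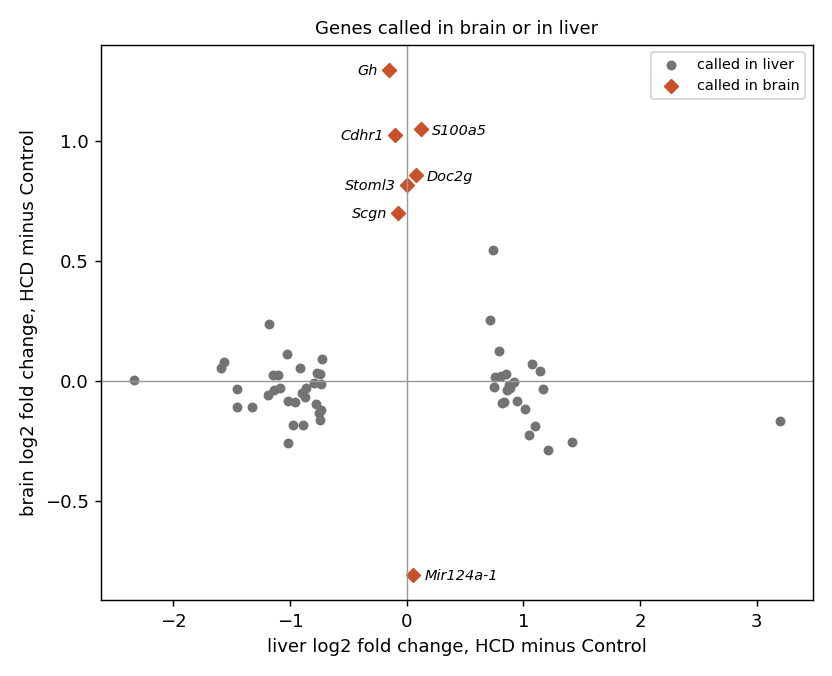
Log2 fold change, HCD minus Control, in liver (horizontal axis) and brain (vertical axis) for the 54 genes DE in liver (grey points) and the 7 DE in brain (diamonds). The liver genes lie between -0.28 and 0.55 in brain, and the brain genes between -0.15 and 0.13 in liver.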

How the data were processed

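RNA of brain, liver and kidney was hybridised to Affymetrix mouse gene arrays (Mouse Gene ST), 45 in all, 3 per group and tissue. The values are log2 expression deposited by the authors, who corrected signals with RMA, applied quantile normalization and the ComBat batch adjustment, and represented each gene by its probe set of highest interquartile range. The batches that ComBat adjusted and the genome build are not given in the sources used here, so a batch cannot be set beside the groups. Batch adjustment before deposit can make p-values smaller than the raw arrays would give.

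Tissue, diet and pool letter came from the labels. Group means of all 15 groups were estimated together from the 45 arrays in limma 3.58.1 (R 4.3.3), with empirical Bayes moderation and Benjamini-Hochberg adjustment over 22080 genes. Of these, 13 had names turned into dates; they were tested but are not named. A fold change is on the log2 scale. The script was tested on simulated data with known changes. Because array C of a group is a mix of A and B, p-values measure a spread that is in part technical.

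The comparison, the 44 gene lists and 9 gene families and the rule for named genes were chosen with earlier results of these data known. Named genes were up to 15 DE genes in each direction, the DE members and up to 4 members with the largest absolute log2 fold change of each list, all members of the 3 cholesterol lists, and up to 10 genes farthest from the other Control arrays on the Control array of lowest correlation. Other genes are named because they are DE in brain or liver, are members of these lists given for comparison, or were chosen after their values were seen. Some genes that the rule names are not reported here. Lists are described by counts and medians without a set test. With 0.0317% of all genes DE, the lack of a DE gene in a list says little about its members. Of 22067 named genes, 20199 matched a RefSeq symbol on GRCm38.p6.

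Alternatives were fits on the arrays of the compared tissues or groups only, a fit without the C arrays (pools A and B only), a block for pool letter, removal of genes under a mean of 6.87 log2 units, renewed quantile normalization, trend and robust moderation, array weights, no fold change threshold, each array left out in turn and, added after seeing the data, the mean of the cerebellum list as a covariate. Python 3.11.15 and matplotlib 3.10.9 made the figures.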

Additional observations from a re-analysis of the deposited data

Results flagged for a closer look

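Several diet differences were not the same in brain as in another tissue, by a test of the difference between tissues in the limma fit over all arrays. Against liver, the HCD minus Control difference in brain was larger by 1.45 log2 units for Gh, 0.92 for S100a5, 1.13 for Cdhr1, 0.78 for Doc2g, 0.82 for Stoml3 and 0.78 for Scgn, and it was different by -0.86 for Mir124a-1. Liver log2 fold changes of these 7 ran from -0.15 to 0.13. The 7 were chosen as DE in brain in the same fit, so neither this test nor that against kidney adds separate support for them. Sqle, at 0.97, and Srebf1, at -1.10, showed the opposite pattern, a change in liver with little difference in brain.

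Against kidney, the brain difference was larger by 1.205 for Gh, 1.01 for S100a5, 1.07 for Cdhr1, 0.91 for Doc2g and 0.81 for Stoml3, and different by -0.81 for Mir124a-1. Vmn1r121, a vomeronasal receptor gene, differed by -0.84, with log2 fold changes of -0.28 in brain and 0.55 in kidney, and Gm21943, a predicted gene, by -1.03, with -0.52 and 0.51. Both belong to families of near-identical copies that the array may not separate.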

How the results depend on the processing

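The count of DE genes depended most on which arrays entered. Against 7 DE genes, 6 higher and 1 lower, the brain arrays alone gave 4 (3 higher, 1 lower) and the compared groups alone 3 (2 higher, 1 lower). Cdhr1, Doc2g and Gh were lost in both fits, and Scgn also in the second. Pools A and B only gave 207 (82 higher, 125 lower), array weights, whose estimation stopped before convergence, 14 (11 and 3), and no fold change threshold 12 (10 and 2). Removal of dim genes left 2 (2 and 0), Gh and Doc2g, since the other 5 DE genes were dim and no longer tested. With 1 array left out, counts ran from 6 to 139 in all, 5 to 62 higher and 1 to 77 lower, the highest without Control array C and otherwise at most 9. Renewed quantile normalization and trend and robust moderation each gave 7. For brain against liver, 42 genes became 23 on these tissues, 17 on these groups, 331 on pools A and B, 19 without dim genes and 72 without a fold change threshold, and 28 to 206 with 1 array left out (206 without Control array C, 72 without liver Control array C). For brain against kidney, 27 became 15 on these groups, 217 on pools A and B and 3 without dim genes, and 22 to 147 with 1 array left out (147 without Control array C). On pools A and B only, Gabra6 turned to -1.80 and Cbln3 to -1.97, and with 1 array left out Cbln3 ran from -1.59 without Control array C to 1.298 without Control array B. The replicate block gave 7 DE genes, 44 against liver and 27 against kidney and changed no call of the 7. Pool letters did not pair the samples: deviations of same-lettered Control and HCD arrays correlated at 0.03, -0.27 and -0.27.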

Other observations

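Chemosensory receptor genes, outside the olfactory bulb list, did not follow the bulb genes. Of 1100 olfactory receptor genes, which olfactory sensory neurons express 1 at a time and which lie near the array's floor in brain, 452 were higher on HCD and the median log2 fold change was -0.02, with 7 higher and 24 lower at an unadjusted p of at most 0.05 and none past the adjusted p. Of 211 vomeronasal receptor genes 79 were higher, with a median of -0.04. The mean level of the olfactory receptor genes was 4.36, 4.40 and 4.38 on Control arrays A, B and C and 4.38, 4.33 and 4.36 on HCD arrays A, B and C, so the groups overlapped.

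Genes of energy metabolism, ribosomes and chromatin held no DE gene, next to 0.0317% over all genes. Of 37 subunits of respiratory complex I 15 were higher, with a median of -0.03, and of 18 cytochrome c oxidase subunits 7 were higher, with a median of -0.03. Of 96 genes taken as ribosomal protein genes by their symbols, among them the kinase gene Rps6ka1, 56 were higher, with a median of 0.02. Histone genes had a median of -0.01 with 15 of 43 higher. Red blood cell genes had a median of -0.08 and hepatocyte genes -0.14, with Alb, serum albumin, at 6.89, 6.93 and 6.59 on Control and 6.41, 6.05 and 6.65 on HCD (log2 fold change -0.43, limma adjusted p = 0.756).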
